A study of Rattus norvegicus with 5 samples.

Results

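Skin taken 14 days (d) after irradiation was set against skin taken 7 d after irradiation, cell compartment by cell compartment, in male SD (Sprague-Dawley) rats profiled by droplet single-cell RNA sequencing. The members were the barcodes of these libraries that carried 500 or more unique molecular identifiers (UMIs, each standing for 1 captured transcript) and 300 or more detected genes, with mitochondrial transcripts making up no more than 20%. This left 4371 cells at 14 d and 11304 cells at 7 d, together 15675 of the 43410 kept cells of the whole series. In both groups the shaved buttock had received a single local exposure to an electron beam, with lead shielding the rest of the animal. A library of non-irradiated rat skin, with 10154 kept cells, gave the level without irradiation and is called the control. The study's methods describe 1 dissociation protocol, worded for eyelid skin of people, with subcutaneous tissue removed, digestion with collagenases, dispase and trypsin and a sort against dead cells by propidium iodide, and they do not say separately how the rat skin was treated. The labels name no genotype, no further agent, no age and no number of animals behind a library. Each time point was 1 library, so no difference between times could be tested and no p-value is given. All intervals are exact 95% intervals that cover counting error only, and the spread between animals is unknown.

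Ionizing radiation breaks DNA and stabilizes the transcription factor p53, which switches on brakes of the cell cycle such as Cdkn1a and its own inhibitor Mdm2. The epidermis is renewed by dividing basal keratinocytes, and where these are lost it is rebuilt by keratinocytes that, in wounds, make stress keratins and antimicrobial alarmins. The dermis below is made by fibroblasts, is fed by vessels of endothelial and mural cells, and is entered by leukocytes that clear dead cells and release cytokines.

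The library at 14 d was the smaller and had more barcodes over the mitochondrial limit. It held 6012 barcodes, of which 25.5% exceeded 20% mitochondrial UMIs, against 7.44% of 12239 barcodes at 7 d and 6.4% of 10875 in the control. The kept cells had a median of 6978 UMIs at 14 d, 8328 at 7 d and 9404.5 in the control, and 67010809, 113717992 and 111788824 UMIs in all. The 14 d and 7 d libraries shared 11 barcodes, 0.252% of the cells at 14 d. RNA of the dominant cell types was found in the other compartments too. Levels are UMIs summed over the cells of a compartment per 1000000 of its UMIs (CPM). The summed level of 9 fibroblast markers in T and NK cells was 2992 CPM at 7 d and 17.7 CPM at 14 d, and that of S100a8, a keratinocyte and neutrophil alarmin, in mural cells was 2.43 at 7 d and 152 at 14 d. The part of this RNA and of the excluded barcodes in the results below was not tested, and genes are therefore named mainly in compartments where they reached at least 0.2 of the level of the compartment with the most.

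The make-up of the skin libraries differed strongly between the times. Fibroblasts were 7153 cells, or 63.3% [62.4 to 64.2], at 7 d and 77 cells, or 1.76% [1.39 to 2.2], at 14 d, and they were 32.8% in the control. Keratinocytes were 16% [15.3 to 16.6] at 7 d, 50.2% [48.7 to 51.7] at 14 d and 47.9% in the control. The difference between 14 d and 7 d was thus −61.5 percentage points [−62.5, −60.5] for fibroblasts and 34.3 points [32.6, 35.9] for keratinocytes. Leukocytes of all kinds were 4.56% of cells in the control, 4.69% at 7 d and 24.0% at 14 d. T and natural killer (NK) cells, which kill target cells or release cytokines, were 0.798%, 0.876% and 8.81%, a difference of 7.93 points [7.09, 8.83] between 14 d and 7 d. Cells gated on Irf8, Siglech and related genes were 0.335%, 0.602% and 8.17%, a difference of 7.57 points [6.75, 8.43]. Neutrophils, short-lived phagocytes of early wounds, were 0.817%, 0.416% and 2.01%. Mononuclear phagocytes were gated together on genes of macrophages and of dendritic and Langerhans cells. They were 1.78%, 1.57% and 1.14%, and the interval of their difference, −0.805 to 0.00160 points, held 0. Taken by cluster instead of by gate they were 369 cells at 7 d and 255 at 14 d, a difference of 2.57 points [1.81, 3.37] in the other direction. With doubled marker thresholds the difference was 2.74 points for T and NK cells, 9.28 for all leukocytes and 2.39 for blood endothelial cells, and for neutrophils it was 0.0357 with an interval that held 0. With cells thinned to 1000 UMIs it was 3.82 for T and NK cells and 0.917 for neutrophils.

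Among all kept cells the vessel and nerve compartments were larger shares at 14 d. Blood endothelial cells were 1.22% of cells at 7 d and 5.12% at 14 d, mural cells 5.06% and 8.21%, and Schwann cells, the glia of skin nerves, 0.964% and 2.40%. Lymphatic endothelial cells were 79 at 7 d and 2 at 14 d, and skeletal muscle cells 157 and 15. Melanocytes numbered 13 at 7 d and 0 of 4371 cells at 14 d, a count that allows a share of up to 0.0686%. Shares in a library sum to the whole, so more cells of one kind and fewer of another cannot be told apart. Among the cells outside the keratinocyte and fibroblast gates, 1601 at 7 d and 1754 at 14 d, leukocytes were still 33.1% and 59.8%, T and NK cells 6.18% and 22%, and mononuclear phagocytes, by the gate, 11.1% and 2.85%. Mural cells were 35.7% and 20.5% and Schwann cells 6.81% and 5.99% of that remainder, an order opposite to that among all cells, and endothelial cells 8.62% and 12.8%. The dissociation, any sort and the mitochondrial limit can each set such shares, and their part was not tested.

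**Figure D1:**
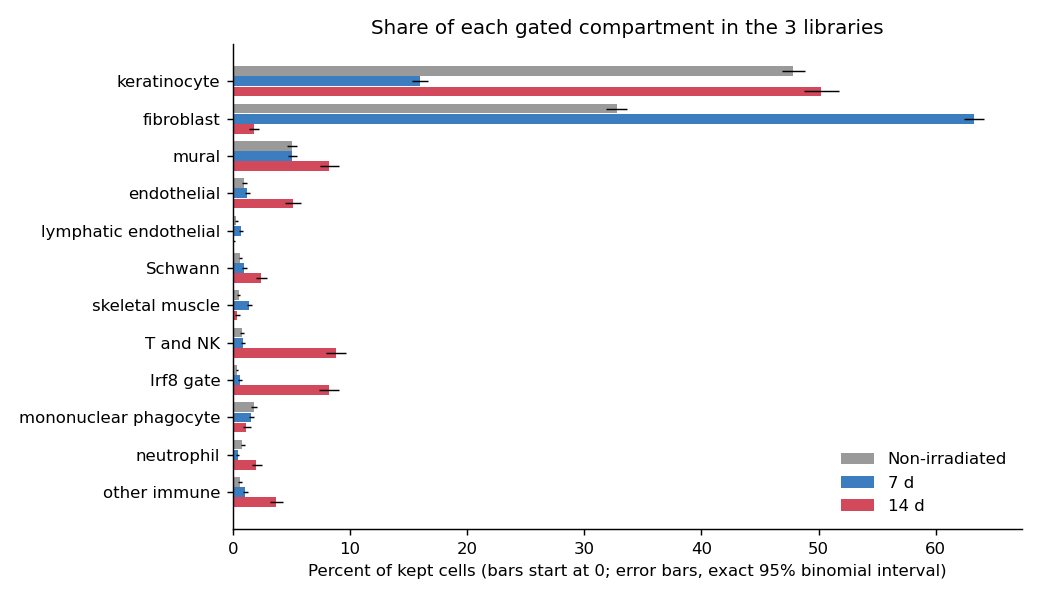
Share of kept cells (percent, horizontal axis starting at 0) in 12 compartments for non-irradiated skin (grey), 7 d (blue) and 14 d (red), with exact binomial 95% intervals. Fibroblasts made up 63.3% at 7 d and 1.76% at 14 d, while T and NK cells (0.876% and 8.81%) and Irf8-gated cells (0.602% and 8.17%) stood higher at 14 d.

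Keratinocytes, 1804 cells at 7 d and 2195 at 14 d, were different cells by most measures. At 14 d 93.8% of them fell into 1 cluster that held 26 cells of the 7 d library, while at 7 d the largest cluster held 41.3% of them. Of 4833 genes measured in them, 5.13% were at least 2-fold higher at 14 d and 23.6% at least 2-fold lower, with a median log2 ratio of −0.39. With TMM scaling, which assumes that most genes are level, 674 genes were higher and 507 lower, so the balance of higher and lower genes rests on the scaling. Relative to the median gene 466 were higher and 657 lower. The 14 d cells were also deeper, with a median of 23713 UMIs against 11925. The basal range was set by Krt5, Krt14, Krt15, Col17a1, Itga6 and Itgb4, and the suprabasal range by Krt1, Krt10, Krtdap and related genes. Of the keratinocytes at 7 d 84.0% were basal and 2.49% suprabasal, against 34.0% and 48.0% at 14 d. In the control the shares were 62.1% and 8.79%. Several of these basal genes were themselves lower at 14 d, as given below. Cells in the range of the hair follicle were 10.5% in the control, 5.65% at 7 d and 0.547% at 14 d.

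Alarmins and protease inhibitors of the wounded epidermis were among the genes with the highest ratios of 14 d to 7 d. S100a8, a subunit of the alarmin calprotectin, was at 6.70 CPM in the control, 63.0 [60.1 to 66.0] at 7 d and 8000 [7977 to 8024] at 14 d, a 127-fold difference. Its partner S100a9 followed the same order, at 15.5, 59.5 and 7079. UMIs of S100a8 were present in 93.2% of the keratinocytes at 14 d and 11.7% at 7 d. With each cell thinned to an equal number of UMIs these shares were 70.5% and 2.28%, against 13.8% and 0.705% in mural cells, which should lack it and had median depths of 5945 and 6772.5 UMIs before thinning. Stfa3 and Stfa2l1, cysteine protease inhibitors of the stefin family, were at 1848 and 32.1 in the control, at 1369 and 16.1 at 7 d and at 16106 and 506 at 14 d. Fabp5, the epidermal fatty acid-binding protein, was at 1515 in the control, 851 at 7 d and 17843 at 14 d. The stefins and Fabp5 were thus below the control at 7 d, and S100a8 and S100a9 above it. Of 11 measured genes of an antimicrobial and alarmin list, 9 were at least 2-fold higher at 14 d and 1 was lower, with a median log2 ratio of 3.56. In basal cells alone that median was 3.38 and in suprabasal cells alone 0.71, where S100a8 was at 4.47 and Fabp5 at 1.42 against 6.99 and 4.39 over all keratinocytes. The lower one was Reg3g, a lectin that kills Gram-positive bacteria, which was at 0.354 in the control, 246 at 7 d and 1.86 at 14 d.

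The other named genes with high ratios at 14 d had varied roles. Klk13, a secreted serine protease, was at 1.05 at 7 d and 74.2 at 14 d, and Car2, a carbonic anhydrase, at 3.94 [3.25 to 4.74] and 266 [262 to 271]. Sprr1b, a cornified envelope precursor, was at 3.59 and 98.4, and Gjb2, which forms gap junctions (connexin 26), at 33.0 and 679.9, and in suprabasal cells alone their log2 ratios were 1.09 and 1.76 against 4.78 and 4.37. Wfdc18, a secreted protein of the whey acidic protein family, was at 47.7 and 2594, and Trem3, a receptor better known from myeloid cells, at 1.12 and 68.0. Krt16, the stress keratin of wound edges, was at 11 in the control, 66.8 at 7 d and 891 at 14 d, and after thinning 1.71% and 34.5% of keratinocytes held it. Krt16 was thus already above the control at 7 d. The wound keratinocyte list as a whole was divided, with 6 of 17 genes higher and 5 lower. The suprabasal and cornified list was divided too, 4 of 12 higher and 4 lower. Tgm1 and Tgm3, transglutaminases that crosslink the envelope, were at 45.6 and 71.6 at 7 d and at 122 and 239 at 14 d, while Casp14 and Klk7, proteases of terminal shedding, were at 26.4 and 87.1 at 7 d and at 10.1 and 9.56 at 14 d.

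**Figure D2:**
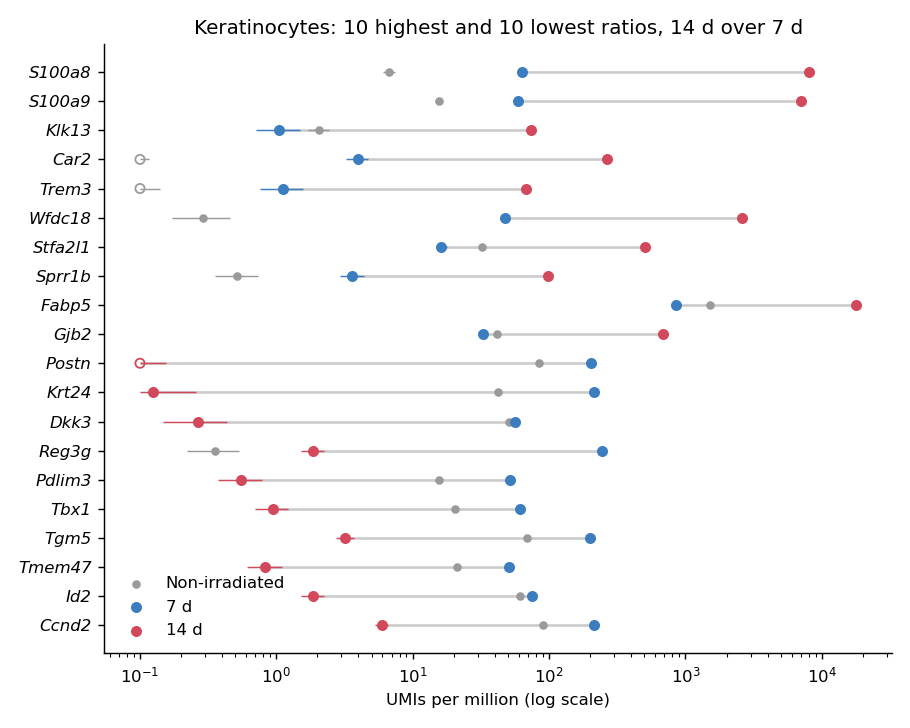
Levels of named keratinocyte genes (CPM, horizontal log axis; 10 with the highest and 10 with the lowest ratio) in non-irradiated skin (grey), at 7 d (blue) and at 14 d (red), with Poisson 95% intervals as lines and open circles for values under 0.1. S100a8 stood at 63.0 at 7 d and 8000 at 14 d, and Krt24 at 213 and 0.124.

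Most listed genes of basal anchorage and the hair follicle were lower at 14 d, while the basal keratins Krt5 (5974 and 7436) and Krt14 (892 and 1550), which set the gate, were not. Krt15, a further basal keratin of the gate, was lower, at 6572 at 7 d and 285 at 14 d. Of 15 basal and hemidesmosome genes 11 were at least 2-fold lower and 1, the signalling ligand Wnt4 (41.7 and 125), was higher, with a median log2 ratio of −1.50 over all keratinocytes and −0.46 in basal cells alone. Col17a1, Itga6 and Itgb4 belong to this list and also set the basal range. The median in basal cells alone therefore depends on how those cells were chosen. Itgb4, the hemidesmosomal integrin chain, was at 567 at 7 d and 131 at 14 d, Col17a1, its collagen partner, at 502 and 148, and Itga6, which pairs with Itgb4, at 219 and 91.9. The hair follicle and sebaceous list had 6 of 9 genes lower and 2 higher, Krt71 and Mgst1. Lhx2, Sox9 and Krt71 of this list also set the hair follicle range, so its share and these levels are not independent. Lhx2 and Sox9, transcription factors of follicle stem cells, were at 96.2 and 273 at 7 d and at 0.832 and 44.2 at 14 d. Tbx1, another stem cell transcription factor of the follicle, was at 61.3 and 0.938, and Id2, an inhibitor of differentiation factors, at 74.4 and 1.86. Ccnd2, a cyclin of the G1 phase, was at 212 and 5.93, and Tgm5, a transglutaminase, at 198 and 3.20. The greatest ratio belonged to Postn, a matrix protein that binds integrins, with 5793 UMIs (202 CPM) at 7 d and 3 UMIs (0.0531 CPM) at 14 d, log2 ratio −11.89 [−14.17, −10.35]. Beside it stands Col3a1, a fibroblast collagen, which in the same gate was at 752 and 2.96. Krt24, a keratin of differentiating cells, was at 213 and 0.124, and Dkk3, a Wnt pathway antagonist family member, at 55.9 and 0.265. Within basal cells alone the log2 ratio of Postn was −10.39, and within suprabasal cells alone it was −9.27.

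Cxcl14, a chemokine made by resting epidermis, was at 656 in the control, 2448 at 7 d and 117 at 14 d, and Ccl27, which draws T cells to skin, at 1010, 87.2 and 30.8. Ccl20, the ligand of Ccr6 on IL-17-producing T cells, was at 1623 at 7 d and 339 at 14 d. Il24, a cytokine of the IL-10 family induced in wounds, was the reverse, at 36.7 and 141. Glucose use genes stood higher at 14 d in 7 of 16 members of a hypoxia and glycolysis list, with 0 lower. Slc2a1, the glucose transporter, was at 66.0 at 7 d and 315 at 14 d, Pgk1 at 336 and 1344, Eno1 at 435 and 1284 and Aldoa at 474 and 1074, the last 3 being glycolytic enzymes. Mki67, a marker of cycling cells, was at 84.1 in the control, 51.3 at 7 d and 48.8 at 14 d, log2 ratio −0.07 [−0.17, 0.02] in CPM. The mitotic genes Ccnb1 and Birc5 were at 21.1 and 23.3 at 7 d and at 59.2 and 54.9 at 14 d. Of 17 cell cycle genes these 2 passed 2-fold upward, and Pcna, the replication clamp, was the 1 lower, at 159 and 58.8. Over all genes measured 5.13% were higher and 23.6% lower. The median log2 ratio of the cell cycle list was 0.03, but it depended on scaling and layer. It was 0.61 with TMM scaling, 0.42 relative to the median gene, 0.55 in basal cells alone and 1.25 in suprabasal cells alone.

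The p53 target genes of keratinocytes were lower at 14 d than at 7 d. Cdkn1a, which encodes the p21 inhibitor of cyclin-dependent kinases, was at 462 in the control, 866 [855 to 877] at 7 d and 172 [168 to 175] at 14 d. Mdm2, which marks p53 for degradation, was at 83.8, 292 and 61.4, and Ccng1, another direct p53 target, at 72.5, 259 and 64.2. In CPM all of these were above the control at 7 d and below it at 14 d. No rescaled or layer-matched value against the control is given. TMM scaling moved all keratinocyte ratios of 14 d to 7 d by 0.58 on the log2 scale, so the place of Mdm2 and Ccng1 below the control depends on the scaling. Of 10 cell cycle arrest targets of p53, 9 were at least 2-fold lower at 14 d and 0 higher, with a median log2 ratio of −2.07. With TMM scaling that median was −1.49, in basal cells alone −2.04 and in suprabasal cells alone −1.72. Of 5 apoptosis and repair targets 4 were lower, among them Bax, which opens mitochondria in apoptosis, at 71.6 in the control, 190.3 at 7 d and 75.7 at 14 d.

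Immediate early genes and chaperones followed the same order in keratinocytes. Of 7 AP-1 genes 6 were lower at 14 d, Fos at 3200 and 701 and Jun at 3493 and 939. Of 15 genes of the Egr, Klf and Nr4a families and their kin 14 were lower, among them Egr1, at 1003 and 159, and Klf4, at 2144 and 539. Of 11 heat shock chaperones 6 were lower. Hspa1b, the inducible Hsp70, was at 1027 in the control, 1527 at 7 d and 272 at 14 d, and Hspb1, the small chaperone Hsp27, at 1284, 2987 and 573. Dnajb1, the Hsp40 partner of Hsp70, was almost level, at 735 and 601, as was the constitutive Hspa8, at 1696 and 1500. Enzymatic digestion of tissue can itself induce immediate early and chaperone genes, and its part was not tested.

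The promoters of chaperones whose levels differed and of one that hardly did are shown because heat shock genes share a binding site of the factor Hsf1. Each is the 150 bases before the annotated start in RefSeq (build GRCr8), printed 5′ to 3′ on the gene's strand, with capitals marking matches to GAANNTTC. Hspb1 is at chr12:26432302-26432451 (minus strand), Hsph1, an Hsp110 chaperone, at chr12:10427218-10427367 (plus strand) and Dnajb1 at chr19:41431142-41431291 (minus strand).
Hspb1: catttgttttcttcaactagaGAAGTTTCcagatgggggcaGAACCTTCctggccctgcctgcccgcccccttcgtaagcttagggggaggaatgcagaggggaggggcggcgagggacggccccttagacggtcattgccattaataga
Hsph1: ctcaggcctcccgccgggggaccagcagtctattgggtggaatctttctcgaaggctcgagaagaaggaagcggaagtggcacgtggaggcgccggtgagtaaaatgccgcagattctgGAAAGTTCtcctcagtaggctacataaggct
Dnajb1: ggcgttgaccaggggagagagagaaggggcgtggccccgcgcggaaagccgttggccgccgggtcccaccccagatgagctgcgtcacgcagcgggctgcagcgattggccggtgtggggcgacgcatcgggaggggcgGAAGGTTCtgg
The palindromic motif reads alike on both strands. Its presence was counted over a longer stretch before the start than the 150 bases printed, of equal length for all promoters. It lay in 8 of 10 chaperone promoters with a sequence, 80.0%, against 7.23% of 33469 promoters and 1 of 17 promoters of the immediate early genes. Within the printed bases Hspb1 carried 2 matches and Dnajb1, whose keratinocyte level differed least of these, carried 1. Hsph1, at 143 CPM at 7 d and 34.2 at 14 d, also carried 1. A match of letters is a description and not evidence of binding.

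Across 8 compartments Cdkn1a, Mdm2 and the inducible chaperones were lower at 14 d in most, and other p53 targets in about as many as not. In this and the next paragraph lower or higher means that the interval of the ratio did not hold 0, without a 2-fold limit. Cdkn1a was at least 2-fold lower only in keratinocytes and in T and NK cells. Mdm2 was so only in keratinocytes, fibroblasts, mural cells and Schwann cells. Ccng1 was lower at 14 d in 4 and higher in 2, and Phlda3 and Aen were lower in 4 with intervals that held 0 in the other 4. The median of the p53 arrest list was −2.07 in keratinocytes, −0.06 in Schwann cells and 0.14 in endothelial cells. Cdkn1a was above its control level in 8 compartments at 7 d and in 6 at 14 d, and it was lower at 14 d than at 7 d in 7, with log2 ratios from −2.33 in keratinocytes to 0.47 in the Irf8 gate, the exception. Mdm2 was above the control in 8 compartments at 7 d and in 2 at 14 d, and higher at 14 d than at 7 d in endothelial cells only, at 234 and 287. Hspa1b was lower at 14 d in 7 compartments, and in endothelial cells, at 2853 and 2732, the interval of the ratio held 0 on the log2 scale. Hsph1 was above the control in 8 compartments at 7 d and in 2 at 14 d. T and NK cells had Cdkn1a at 79.1 in the control, 204 at 7 d and 83.7 at 14 d, below 0.2 of the level of the compartment with the most.

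Nr4a1, which encodes the orphan nuclear receptor Nur77, did not share one order. In keratinocytes it was at 156 in the control, 173 at 7 d and 33.6 at 14 d, and in T and NK cells at 71.4, 243 and 135. In the Irf8 gate, whose cells lay mostly in different clusters at 7 d and 14 d, it was at 188, 542 and 56.7. In mural cells the order of the times was the opposite, at 500.1, 417 and 578, log2 ratio 0.47 [0.37, 0.58]. The intervals held 0 in fibroblasts (327 and 289), endothelial cells (116 and 132), Schwann cells (554 and 577) and mononuclear phagocytes (154 and 123). Early genes in general were so divided, with Fos lower at 14 d in 5 compartments and higher in 3. Postn was lower at 14 d in 8 of 8 compartments, beside less fibroblast RNA in the other gates, and Cxcl9, an interferon-induced chemokine, in the 5 of 5 where it was measured.

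**Figure D3:**
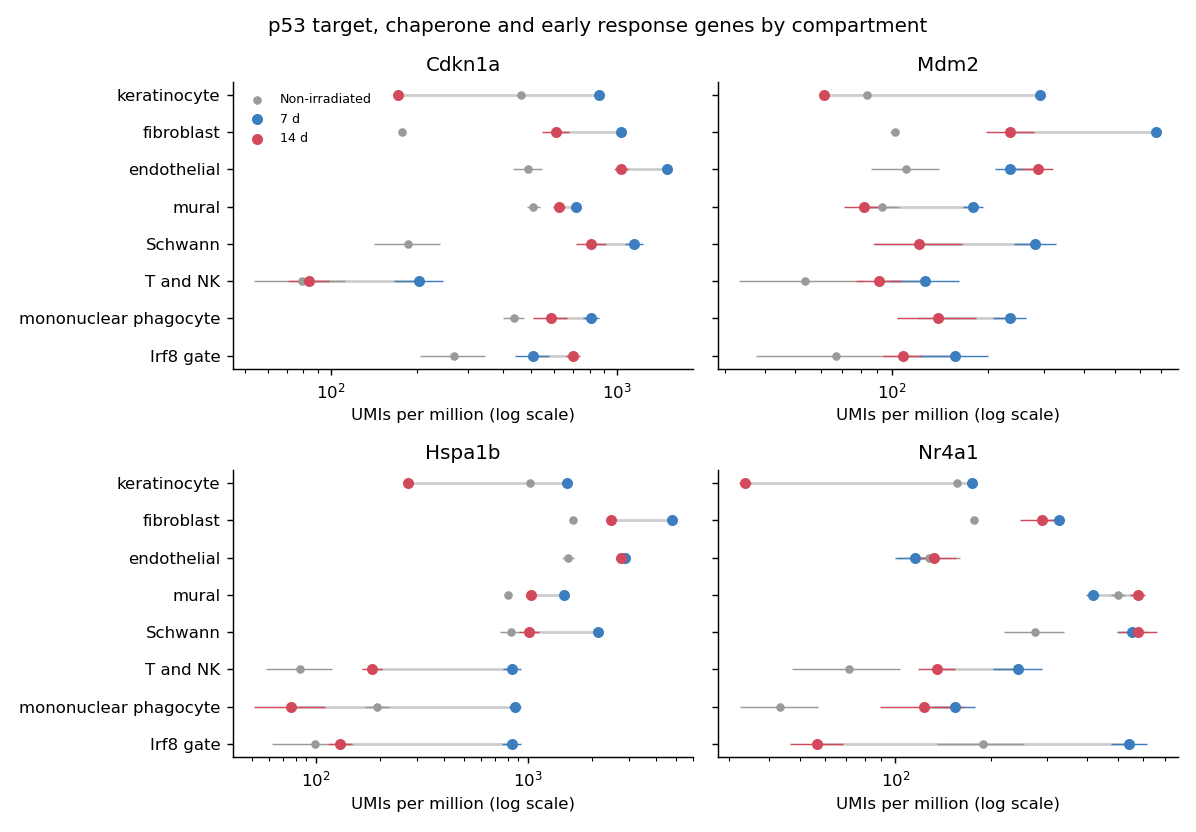
Levels of Cdkn1a, Mdm2, Hspa1b and Nr4a1 (CPM, log axis) in 8 compartments for non-irradiated skin (grey), 7 d (blue) and 14 d (red), with Poisson 95% intervals as lines. By the interval of the ratio, without a 2-fold limit, Cdkn1a and Hspa1b were lower at 14 d than at 7 d in 7 of 8 compartments, and Nr4a1 in 3.

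**Figure D4:**
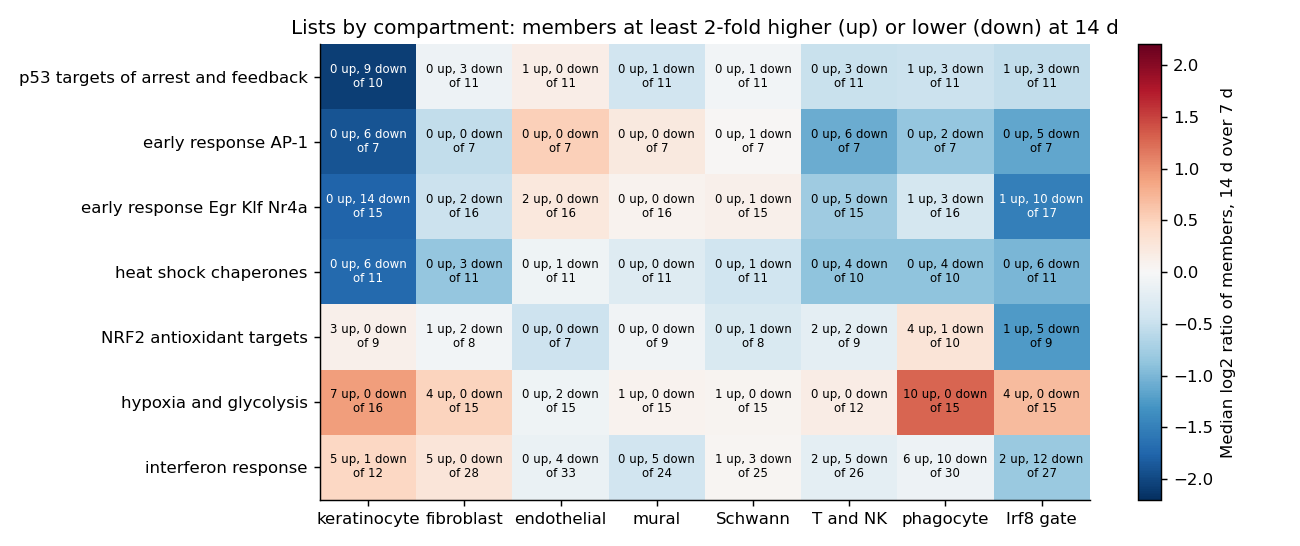
Heat map of the median log2 ratio of 14 d over 7 d for 7 gene lists (rows) in 8 compartments (columns), each cell printed with the number of genes at least 2-fold higher, at least 2-fold lower and measured. In keratinocytes 9 of 10 cell cycle arrest targets of p53 were lower, while in endothelial cells 0 of 11 were.

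Fibroblasts at 14 d, only 77 cells against 7153, had higher levels of several inflammatory and matrix-degrading transcripts. Small RNAs moved with them in this gate, 5S rRNA from 18.4 at 7 d to 146 at 14 d, 7SK from 82.9 to 361 and Vault RNA from 27.6 to 196, and their part was not tested. The largest cluster at 7 d held 37.9% of the fibroblasts there and 4 cells of the 14 d library. At 14 d 45.5% of the fibroblasts lay in another cluster, which held 783 cells of the 7 d library. The part of this mix in the results was not tested. Of 4933 genes, 5.82% were at least 2-fold higher and 8.03% lower. Lcn2, an iron-binding antimicrobial protein, was at 1.20 in the control, 1.31 [1.05 to 1.61] at 7 d and 252 [212 to 297] at 14 d, in 10.4% of the 14 d cells. Esm1, a proteoglycan better known from endothelium, was at 0.775, 5.87 and 541 [482 to 605], in 18.2% of cells, and Olr1, a receptor for oxidized lipoprotein, at 3.93 at 7 d and 299.9 at 14 d. Few cells therefore carried these transcripts, and Mmp13, a collagenase at 0.196 at 7 d and 299.9 at 14 d, came from 3.90% of cells. Apod, a lipocalin of dermal fibroblasts, was at 2029 in the control, 1670 at 7 d and 19628 at 14 d, and Chi3l1, a chitinase-like secreted protein, at 7.35 and 89.2. S100a8, of other cells, was at 6.09 and 141 in the same gate. The lower named genes were Crabp1, which binds retinoic acid, at 649 and 58.9, Igfbp3, which binds insulin-like growth factors, at 536 and 62.5, Pappa2, a protease of such binding proteins, at 59.4 and 8.93, Tspan8, a tetraspanin, at 90.9 and 14.3, and Hpgd, which degrades prostaglandins, at 76.8 and 14.3.

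Several cytokine genes were higher at 14 d in the fibroblast gate, whose mix of clusters differed between the times. Of 11 chemokines for monocytes and T cells 7 were at least 2-fold higher and 1 lower, and 3 of 5 neutrophil chemokines and 4 of 8 genes of the IL-1 and IL-6 family list were higher with 0 lower. Among members that reached 0.2 of the level of the compartment with the most, these counts were 5 of 9, 1 of 3 and 2 of 6, and the median of the neutrophil chemokines was −0.09 and, with doubled thresholds over its measured members, −0.42. Cxcl1, the most frequently detected of them, was at 13890 in the control, 6859 at 7 d and 4720 at 14 d. Cxcl14 was at 1248 in the control, 1506 at 7 d and 6917 at 14 d, the opposite order to keratinocytes. Il6, the acute phase cytokine, was at 869, 389 and 1351, and Il33, an alarmin of stromal nuclei, at 105, 92.6 and 605. Cxcl14, Il6 and Il33 were thus near or under the control at 7 d and above it at 14 d, while Cxcl1 was under it at both times. Of 11 matrix metalloproteinases and related proteases 5 were higher and 0 lower, with Mmp3 at 206 and 493. Timp1, an inhibitor of these enzymes from the matricellular list, was at 1729 and 3659. Of 12 collagens outside the gate 0 were higher and 1 lower, while Col3a1, a gate marker, was at 28501 and 15430. Col14a1, a fibril-associated collagen, was at 473 and 141, and Postn at 866 and 269.5. Fibroblast Cdkn1a was at 177 in the control, 1033 at 7 d and 609 at 14 d, and Mdm2 at 102, 673 and 236, both above the control at either time. Of 11 p53 arrest targets 3 passed 2-fold downward and 0 upward, beside 8.03% and 5.82% of all genes measured in the gate.

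Blood endothelial cells, 138 at 7 d and 224 at 14 d, lay in the same cluster at both times and differed less. Of 5285 genes, 3.12% were at least 2-fold higher and 4.90% lower. Tcf15, a transcription factor of fatty acid-handling capillary endothelium, was at 88.0 in the control, 19.6 [13.4 to 27.6] at 7 d and 169 [146 to 194] at 14 d. Lcn2 was at 128, 59.9 and 362, and Id1, a target of BMP signalling, at 201, 202 and 726. Depp1, a FOXO target, was at 65.4 and 250.5, and Ldah, a lipid droplet hydrolase, at 13.4 and 78.0. Tcf15 and Lcn2 were therefore under the control at 7 d and above it at 14 d. Cxcl12, which holds leukocytes through Cxcr4, was at 277, 353 and 1030. The lower named genes were Fam111a, a protease of replicating DNA, at 115 and 5.20, C1qtnf1, a secreted C1q family protein, at 175 and 12.1, and Cyp1b1, a cytochrome P450, at 98.4 and 12.1. Rgs4 and Pdgfrb, at 57.5 and 55.0 at 7 d and 3.47 for both at 14 d, are genes of mural cells, whose summed markers in the endothelial gate were at 760 and 169.9.

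Of 9 listed leukocyte adhesion and activation genes of the endothelium 0 were at least 2-fold higher and 1 was lower. Over all genes of the gate the shares were 3.12% and 4.90%, so 9 genes are too few to set the group apart. Selp, the P-selectin on which leukocytes roll, was at 525 in the control, 639 at 7 d and 657 at 14 d, log2 ratio 0.04 [−0.10, 0.18]. Sele, the E-selectin, was at 38.2, 203 and 369, and Vcam1, at 98.0, 235 and 112, was the 1 lower. Gdf15, a p53-inducible cytokine, was at 51.5, 966 and 412. Of 33 interferon-response genes 0 were higher and 4 lower, among them the T cell chemokines Cxcl9, at 548 and 263, and Cxcl10, at 991 and 464. Of 11 p53 arrest targets 1 was higher and 0 lower, and of 15 angiogenesis genes 1 was higher and 4 lower, with Apln, a ligand made by sprouting tip cells, at 126 and 52.0 and its receptor Aplnr, at 13.4 and 36.4.

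Mural cells, the pericytes and smooth muscle around vessels, had, as gated, the smallest share of genes past 2-fold of the 8 compartments, with 1.14% of 5093 genes at least 2-fold higher and 3.95% lower. Taken by cluster they had 91 higher and 388 lower of 5193, against 172 and 260 of 5307 in endothelial cells, and no longer the smallest share. Hk2, the glycolytic hexokinase, was at 545 in the control, 543 [521 to 566] at 7 d and 1214 [1169 to 1260] at 14 d, and Thbs1, an inhibitor of angiogenesis, at 106, 104 and 264. Both were at their control level at 7 d. Actg2, a smooth muscle actin, was at 261, 428 and 935, Smtn, which binds actin stress fibres, at 128 and 273, and the fibrillar-associated collagen Col12a1 at 55.4 and 142. Of 11 contractile genes 2 were higher and 0 lower. Among markers that set the gate, Rgs5 was at 555 at 7 d and 134 at 14 d and Higd1b at 74.1 and 21.3. Myh11 was at 4247 and 5616, and Kcnj8, Abcc9 and Notch3 differed little. Of 24 interferon-response genes 5 were lower and 0 higher, and Ifi27l2b, an interferon-induced gene, was at 60.6, 1419 and 386, with 4077 at 7 d in the smaller of the mural clusters. The other named lower genes were Cd7, an antigen of T cells, at 72.2 and 2.61, Ifitm1, an antiviral membrane protein, at 531 and 109, Arhgap15 at 58.6 and 11.3, Tent5a, a poly(A) polymerase, at 107 and 20.8, and Prkar2b, a protein kinase A subunit, at 53 and 11.7. That cluster was 31.3% of mural cells at 7 d and 3.06% at 14 d. Within the other mural cluster, 385 cells at 7 d and 337 at 14 d, Ifi27l2b was at 247 and 224 and Irf7, an interferon regulatory factor, at 37.6 and 17.2, while Hk2, at 708 and 1288, and Nr4a1, at 402 and 585, kept their order.

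Schwann cells numbered 109 at 7 d and 105 at 14 d, with 3.91% of 5265 genes at least 2-fold higher and 9.82% lower. Of 20 matrix and matricellular genes 10 were lower and 1 was higher. Postn was at 674 in the control, 655 [593 to 722] at 7 d and 69.6 [44.6 to 104] at 14 d, and was lower in both Schwann clusters taken alone. The 1 higher was Sparcl1, an antiadhesive matrix protein, at 548, 264 and 792. The summed fibroblast markers in this gate were at 6535 and 2474. Of 10 repair and myelin genes 0 passed 2-fold, with Pmp22, a protein of compact myelin, at 11593 and 13775 and Ngfr, the low-affinity neurotrophin receptor of repair cells, at 66.0 and 72.5. Sostdc1, an antagonist of BMP and Wnt, was at 46.7 and 203, Grin2b, a glutamate receptor subunit, at 6.44 and 60.9, and Ldah at 4.83 (3 UMIs) and 84.1. Phf12 and Hirip3, both of chromatin, were at 9.66 and 12.9 at 7 d and at 55.1 and 58.0 at 14 d. The lower named genes were Col20a1, a collagen of Schwann cells, at 278 and 5.80 (2 UMIs), Bgn, a dermal proteoglycan, at 161 and 5.80, Tinagl1, a basement membrane protein, at 134 and 5.80, Hsd11b1, which activates glucocorticoid, at 196 and 8.70, and Steap4, a metalloreductase, at 51.5 and 2.90. Within one of the Schwann clusters Col20a1 and Tinagl1 had 0 UMIs at both times, and Grin2b 0 and 1.

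The T and NK gate, with 99 cells at 7 d and 385 at 14 d, carried more IL-17 and costimulatory transcripts at 14 d and fewer of cytotoxic granules. Of 5022 genes, 5.44% were at least 2-fold higher and 9% lower. Il17a, the cytokine that draws neutrophils through the epidermis, was at 12.8 in the control, 119 [91.4 to 153] at 7 d and 952 [906 to 999] at 14 d, and its relative Il17f at 0, 60.7 and 291. After thinning 2.02% of these cells held Il17a at 7 d and 9.84% at 14 d, against 0.0570% and 0.192% of keratinocytes, which should lack it. Before thinning the median depth was 4856 and 4027 UMIs in T and NK cells and 11925 and 23713 in keratinocytes. With doubled marker thresholds, which left 50 and 139 cells, Il17a had 15 UMIs (53.5 CPM) and 4 UMIs (6.43 CPM), so its direction turned (log2 ratio −3.06). Within the cluster that holds the Il17a cells it was at 243 at 7 d and 1337 at 14 d. Of 10 genes of the IL-17 list 3 were higher and 0 lower, and Ccr6, the receptor for Ccl20, was at 90.1 and 112 with an interval that held 0.

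Of 11 regulatory and helper genes 7 were higher and 0 lower. Tnfrsf4, the costimulatory receptor OX40, was at 38.3 in the control, 33.3 [19.4 to 53.3] at 7 d and 179.8 [160.2 to 201] at 14 d, Ctla4, an inhibitory receptor, at 31.3 and 97.9, and Foxp3, the regulatory T cell factor, at 7.83 and 41.9. Ubd, a ubiquitin-like protein, was at 97.9 and 514, Pdcd1lg2, a ligand of PD-1, at 9.79 and 56.6, and Sema6d, a semaphorin, at 7.83 and 63.1. Cytotoxic genes had the opposite balance, 4 of 11 lower and 1, Cd8b (7.83 and 22.4), higher. Gzma, a granzyme, was at 1115, 1365 and 150.3, and after thinning was present in 31.3% of cells at 7 d and 5.85% at 14 d, against 0.114% and 0.0960% of keratinocytes. Cd8a, the coreceptor of killer T cells, was at 390.4, 325 and 84.9, the granzyme Gzmbl2 at 979 and 159, and its relative Gzmbl3 at 137 and 22.4. Within the cluster of granzyme-bearing cells Gzma was at 2507 and 436 and Cd8a at 484 and 63.5. Focad, a focal adhesion protein, was at 164 and 10.6 and Osgin1, an oxidative stress gene, at 70.5 and 4.72. Of 19 cell cycle genes 8 were lower and 0 higher, with Mki67 at 182 and 82.5.

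Mononuclear phagocytes, 177 cells at 7 d and 50 at 14 d, had fewer transcripts of resident macrophages at 14 d and more of inflammation and matrix degradation. T and NK cell markers in the gate were at 94.3 at 7 d and 429 at 14 d and the gate's own markers at 10188 and 6043, and the part of this in the results was not tested. The largest cluster of the gate held 84.2% of its cells at 7 d, and a different one, which held 2 cells of the 7 d library and 0 of the control, held 25 of the 50 cells at 14 d. Of 4606 genes, 7.84% were at least 2-fold higher and 16.5% lower. Spp1, osteopontin of wound macrophages, was at 35.2 in the control, 19.4 [12.3 to 29.1] at 7 d and 4740 [4519 to 4968] at 14 d. Mmp12, the macrophage elastase, was at 13.4, 26.9 and 2925, Arg1, which consumes arginine, at 3.35, 10.9 and 388, and Nos2, which makes nitric oxide from arginine, at 0.837, 57.2 and 1353. After thinning Spp1 was held by 0.568% and 40% of these cells, against 0.353% and 2.87% of mural cells, and Mmp12 by 1.14% and 50%, against 0 and 0.287%. The gate had median depths of 5934 and 7224 UMIs before thinning. Of 23 inflammatory genes 18 were higher and 0 lower.

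Chemokines of these phagocytes went both ways. Ccl3 and Ccl4, which attract T cells and monocytes, were at 633 and 1726 at 7 d and at 3389 and 6956 at 14 d, Ccl3 being higher in neutrophils, at 17879, and Ccl22, a ligand of Ccr4, was at 93.4 and 738. Ccl2, which attracts monocytes, was at 4780 and 757, and of 12 chemokines for monocytes and T cells 4 were higher and 7 lower. Cxcl11, a ligand of Cxcr3, was at 3.37 and 120.3 and Thbs1 at 0.842 (1 UMI) and 60.1. Of 7 genes of the resident macrophage 6 were lower and 1, Pf4 (597 and 1758), was higher, with Folr2, a folate receptor, at 675 in the control, 277 at 7 d and 107 at 14 d and F13a1, a coagulation factor subunit, at 655, 169 and 38.3. They were already below the control at 7 d. The named lower genes were Cfd, complement factor D, at 2775, 682 and 21.9, Ccl6, a rodent chemokine, at 1028, 1309 and 49.2, Asgr2, a lectin, at 182 and 2.73 (1 UMI), Atp1b1, a sodium pump subunit, at 113 and 2.73, and Gprc5d, an orphan receptor, at 269 and 8.20. Selenop, a selenium carrier, had 27 UMIs at 7 d and 0 at 14 d, at least 2.77-fold lower. Of 15 hypoxia and glycolysis genes 10 were higher and 0 lower, with Pgk1 at 117 and 489. Major histocompatibility class II genes stayed within 2-fold, 0 of 5 passing in either direction, with RT1-Da at 12628 and 7727.

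**Figure D5:**
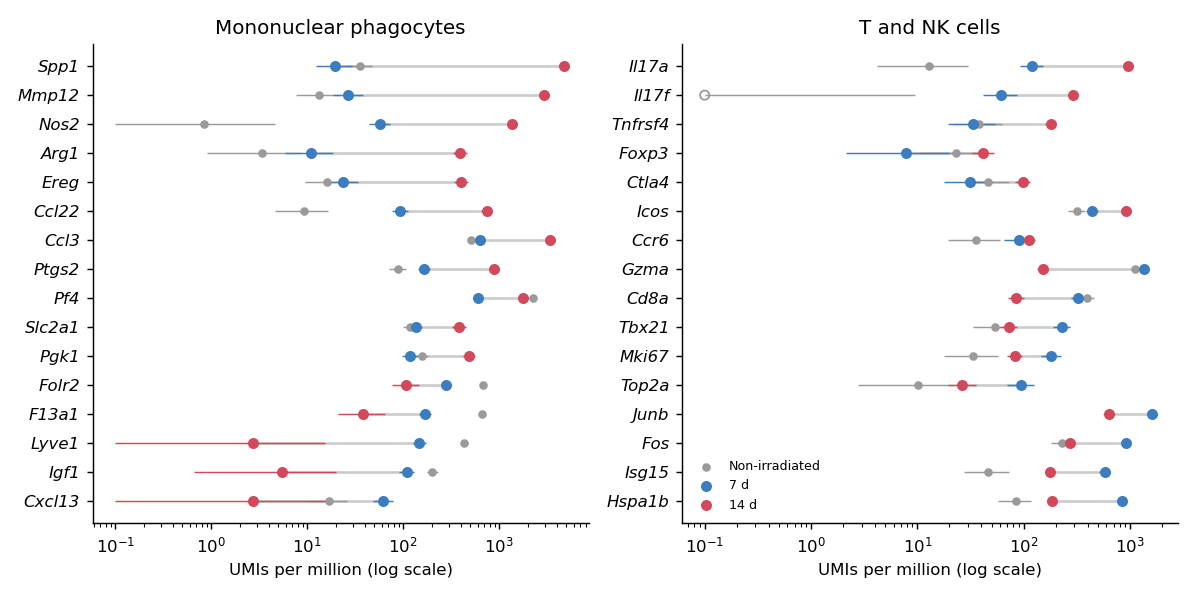
Levels of named genes of mononuclear phagocytes (one panel) and of T and NK cells (the other) in CPM on log axes, for non-irradiated skin (grey), 7 d (blue) and 14 d (red), with Poisson 95% intervals as lines. Spp1 stood at 19.4 at 7 d and 4740 at 14 d, Il17a at 119 and 952, and Gzma at 1365 and 150.3.

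The cells gated on Irf8, Siglech, Tcf4 and other genes of plasmacytoid dendritic cells could not be treated as one kind. At 7 d 54.4% of the 68 cells lay in one cluster and at 14 d 86.6% of the 357 cells in another, which held 7 control cells and 11 cells of 7 d in all. At 14 d the gate had Irf8 at 1968 and Siglech, a sialic acid-binding receptor, at 342 in 54.3% of cells, but both set the gate. Blnk, a B lineage adaptor, was at 1368 and Csf1r, the macrophage growth factor receptor, at 6.07. Further genes looked at for identity went both ways. Tcf4, also of the gate, was at 66.9 at 7 d and 206 at 14 d and Spib at 28.7 and 153. Cd4 was lower, at 31.1 and 9.11. Ccr9, at 7.17 and 12.1, stayed under the limit for a measured gene. At 7 d Lyz2, the myeloid lysozyme, was at 3495 and Irf8 at 502, so the label applied poorly to the 7 d cells. Of 5327 genes 23.2% were at least 2-fold higher and 12.9% lower. The named higher genes were Cyp11b3, a steroid hydroxylase, at 7.17 and 278, Frmd4b, a scaffold protein, at 9.55 and 254, Kdm5b, a histone demethylase, at 11.9 and 211, Hs3st3b1, which sulfates heparan, at 7.17 and 145, and Tiam1, a Rac activator, at 2.39 (1 UMI) and 67.8. The named lower genes were Apod, at 1051 and 4.05, Myoc, a secreted glycoprotein, at 177 and 0.506, Col15a1, a collagen, at 100.3 and 2.02, G0s2, an inhibitor of lipolysis, at 3070 and 17.2, and Ccl6, at 418 and 4.05. Apod, Myoc and Col15a1 are stromal genes, and the summed fibroblast markers in this gate were at 3308 and 24.8. All 5 of 5 class II genes were lower, RT1-Da at 8846 and 2962, but between cells taken by cluster instead the median log2 ratio was 2.32.

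Neutrophils, 47 cells at 7 d and 88 at 14 d, were too few at 7 d for the choice of named genes. Their chemokines were higher at 14 d, with Cxcl2 and Cxcl3, which attract further neutrophils, at 12875 and 839 at 7 d and at 42174 and 18078 at 14 d. Il1b, the fever cytokine, was at 5348 and 9972, and its antagonist Il1rn at 349 and 2445. Their calprotectin subunits differed from each other in direction, with S100a8 at 4514 and 6377 and S100a9 at 28747 and 15582.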

How the data were processed

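The deposited values were raw UMI counts per barcode and gene in the filtered matrices that the authors made with Cell Ranger 5.0.0 on reads aligned to Rnor_6.0, per the submitters' processing notes, which also name STAR and Seurat 3.1.1. Chemistry was 10x 3′ v3. Symbols shared by 2753 of 32623 rows were summed, leaving 30017. The 13 genes starting with Mt- gave the mitochondrial share. Barcodes were gated by the mean natural log of 1 plus markers per 10000 UMIs (156 of 164 markers found), relative to the 100 highest cells, with thresholds of 0.3 for lineages and 0.1 among leukocytes set after looking at the data; barcodes passing several gates (489 at 7 d, 101 at 14 d) or none (257 and 244) were left out of the compartments. A gene was measured at 20 CPM or more in either library and 20 UMIs over both, and called at 2-fold. Named genes had 50 CPM or more and a UMI in 10% of cells in the higher library and no less than 0.2 of their level in the compartment where it was highest; 10 per direction were taken in keratinocytes and 5 in other compartments of at least 50 cells, without mitochondrial, ribosomal, unnamed, small RNA or gate marker genes. Other genes named were members of the 33 lists (530 of 563 symbols found), without a fixed rule. Members, markers and lists were chosen with earlier results of these data known.

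Intervals were Poisson for levels, conditional binomial for ratios and Clopper-Pearson for shares. Those of ratios were run on simulated data, drawn as independent Poisson counts. That run could not show whether the intervals hold where transcripts are bunched in few cells, and they do not cover the spread between cells. A count of 0 was set to 3 UMIs for a bound. Thinned shares used 1000 UMIs per cell, with shallower cells left out. Doublets were called with Scrublet, whose own threshold at 14 d called 0.0458% of cells; the mean threshold of the other libraries, 0.2634, called 1.21% there, and 2.74% were called at 7 d. Called doublets stayed in. Clusters were Leiden clusters (resolution 1.0, 36 clusters) on 40 components of 3000 variable genes. Promoters were RefSeq sequences of build GRCr8, and no coordinates of Rnor_6.0 were used. Alternatives were stricter barcode filters, doublets left out, clusters in place of gates, doubled marker thresholds, TMM (edgeR 4.0.16) or median scaling, cell means, thinning, another denominator, no low-count filter and subsets of compartments; comparisons within single clusters and of genes in their own range, the doublet threshold at 14 d, the alternatives for the shares of Schwann cells, mononuclear phagocytes and neutrophils, and leaving out ratios whose counts were at or under the floor, were chosen after seeing the data. Software was Python 3.11.15, numpy 2.4.6, scipy 1.17.1, pandas 2.3.3 and scanpy 1.11.5. The other libraries of the series entered no comparison.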

Additional observations from a re-analysis of the deposited data

Results flagged for a closer look

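Genes that differed in opposite directions between 7 d and 14 d in different compartments are listed here, each the difference between log2 ratios of 14 d over 7 d. With 1 library per time these differences were not tested. Cxcl14, a chemokine of resting skin, was at 1506 and 6917 CPM in fibroblasts and at 2448 and 117 in keratinocytes, a difference of 6.58, and against Schwann cells, at 700.2 and 165, the difference was 4.28. Arg1, an arginase, was at 10.9 and 388 in mononuclear phagocytes and at 53.1 and 8.70 in Schwann cells, a difference of 7.76. Pgf, a placental growth factor that stimulates vessels, was at 9.26 and 54.7 in mononuclear phagocytes and at 28.1 and 4.33 in endothelial cells, a difference of 5.26. Gpnmb, a glycoprotein of phagocyte lysosomes, was at 155 and 741 in mononuclear phagocytes and at 67.5 and 16.7 in keratinocytes, a difference of 4.27. Sostdc1, an antagonist of BMP and Wnt, was at 46.7 and 203 in Schwann cells and at 53.4 and 9.81 in keratinocytes, a difference of 4.57.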

How the results depend on the processing

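Of 60 alternative values for the 10 shares 34 stayed within the interval of the value reported and 26 moved, 1 of them, for mononuclear phagocytes, to the other sign of a difference whose interval held 0. The difference of 14 d minus 7 d in percentage points was, with stricter barcode filters, 37.09 for keratinocytes and 9.189 for T and NK cells and 0.9918 for neutrophils. With Leiden clusters it was 31.37 for keratinocytes, 1.796 for mural cells, 0.9068 for Schwann cells, 24.92 for leukocytes, 10.91 for T and NK cells, 2.57 for mononuclear phagocytes and 3.747 for neutrophils. With doubled marker thresholds it was 30.71 for keratinocytes, −52.49 for fibroblasts, 2.394 for endothelial cells, 9.275 for leukocytes, 2.738 for T and NK cells, 6.442 for the Irf8 gate and 0.03568 for neutrophils. With thinned cells it was −60.18 for fibroblasts, 2.737 for endothelial cells, 16.34 for leukocytes, 3.815 for T and NK cells, 6.584 for the Irf8 gate and 0.9167 for neutrophils. Among gated cells only it was 37.43 for keratinocytes, −65.84 for fibroblasts and 21.04 for leukocytes.

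Of 156 alternative counts of genes past 2-fold 124 were within 1.5 times of the count reported. Without a filter on low counts the numbers of higher and lower genes were 1127 and 5328 in keratinocytes, 1579 and 1190 in fibroblasts, 874 and 1032 in endothelial cells, 594 and 1227 in mural cells, 702 and 1449 in Schwann cells, 750 and 1188 in T and NK cells, 761 and 1510 in mononuclear phagocytes and 1972 and 1472 in the Irf8 gate. In keratinocytes they were 674 and 507 with TMM scaling and 466 and 657 when centred on the median gene, against 248 and 1140. TMM scaling moved all keratinocyte ratios by 0.58 and all T and NK ratios by 0.15 on the log2 scale, and the share of higher genes among those called in T and NK cells was then 51.5% in place of 37.7%. Centring took that share from 22.4% to 32.8% in mural cells, from 28.5% to 39.5% in Schwann cells, from 32.3% to 42.6% in mononuclear phagocytes and from 64.2% to 48.2% in the Irf8 gate. With the mean over cells 337 genes were higher in endothelial cells. With genes in their own range only, 141 were lower in endothelial cells, and 27 were higher and 99 lower in mural cells. With Leiden clusters 91 were higher and 388 lower in mural cells, 376 higher in Schwann cells, 690 lower in T and NK cells and 1301 lower in the Irf8 gate. Within single clusters 115 were lower in mural cells, 114 higher in Schwann cells and 454 higher in T and NK cells.

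Of 825 alternative log2 ratios of named genes 1 changed sign and 181 moved, and of 1468 list medians 13 changed sign and 162 moved. The reversed ratio was that of Il17a in T and NK cells with doubled thresholds, −3.06. No ratio was given for a further 9, in which both libraries held 3 UMIs or fewer. Reversed list medians in keratinocytes were −2.37 (IL-1 and IL-6 family, suprabasal cells), 0.46 (contractile, suprabasal cells) and 0.018 (senescence, basal cells). In fibroblasts they were −0.42 (neutrophil chemokines, doubled thresholds) and −0.030 (cell cycle, clusters). The others were 0.93 (contractile, endothelial, clusters), 0.24 (collagens, mural, one cluster), 0.0014 (monocyte and T cell chemokines, Schwann, mean over cells), −1.29 (suprabasal, T and NK, clusters), 0.36 (basal, T and NK, one cluster), 0.38 (lipid, mononuclear phagocytes, clusters), 2.32 (class II, Irf8 gate, clusters) and 0.79 (monocyte and T cell chemokines, Irf8 gate, doublets left out). The cause of these changes was not tested. Doubled thresholds left fewer than 50 mononuclear phagocytes for a count of genes.

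No paired analysis was possible because each group holds 1 library, and leaving out a replicate could not be done for the same reason. Depth limits the small compartments most: 77 fibroblasts and 50 mononuclear phagocytes at 14 d, so a transcript in a few cells can set a level there. The control, a single library, sets no range for non-irradiated skin.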
